A study of Mus musculus with 12 samples.

Results

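The C/EBP genes encode CCAAT/enhancer binding proteins, and 5 genes of that name were followed through the conversion of breast cancer cells into fat cells: Cebpa, Cebpb, Cebpd, Cebpg and Cebpz. They were chosen by name from the 17090 genes of the series' count table, and all 5 had enough counts to be tested. Cebpe was not analysed here. The cells were MTΔECad, a mesenchymal mouse breast cancer cell line without E-cadherin, harvested at 0 h, 6 h and days 3, 5, 7 and 10 of an adipocyte protocol. Per the labels' protocols, cells were seeded at 20000 per cm2. The growth factor BMP2 was given at 200 ng/ml during the first 3 days, together with rosiglitazone (2 µM) during the next 4, and rosiglitazone was given without BMP2 during the final 3. BMP2 can commit mesenchymal cells to the fat lineage, and rosiglitazone activates the nuclear receptor PPARγ. All 6 groups were the same line, so they differ in time and treatment and not in genotype. Each time point had 2 libraries from 2 independent experiments, with library totals between 12820802 and 17570366 counts. There were no untreated cells matched in time, so time in culture, density and treatment cannot be told apart.

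Cebpa, Cebpb, Cebpd and Cebpg are basic leucine zipper (bZIP) proteins, which bind DNA only as dimers, among them dimers with themselves or with each other. In cultured preadipocytes Cebpb and Cebpd are known as early factors that act before Cebpa and Pparg, and Cebpa together with Pparg keeps the fat cell program on. Cebpg lacks the activation domain of its relatives and pairs with them or with ATF4, while Cebpz shares the CCAAT-binding name only: it is a nucleolar relative of the yeast ribosome assembly factor Noc1.

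The bases just before the start site of the genes that rose most are shown here because they hold different short elements. RefSeq promoters (GRCm38.p6) were at hand for 3 of the 5 genes. Each run below is the 250 bases that end at the start site, 5′ to 3′ on the gene's own strand. Cebpa lies at chr7:35119043-35119292 (plus strand), Cebpb at chr2:167688665-167688914 (plus strand) and Cebpg at chr7:35056567-35056816 (minus strand). Capitals mark the motif matches, on either strand.
Cebpa: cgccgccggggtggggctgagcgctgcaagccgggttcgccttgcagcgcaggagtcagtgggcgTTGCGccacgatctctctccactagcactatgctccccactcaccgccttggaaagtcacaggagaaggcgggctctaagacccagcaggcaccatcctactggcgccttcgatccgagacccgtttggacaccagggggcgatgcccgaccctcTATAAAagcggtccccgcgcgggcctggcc
Cebpb: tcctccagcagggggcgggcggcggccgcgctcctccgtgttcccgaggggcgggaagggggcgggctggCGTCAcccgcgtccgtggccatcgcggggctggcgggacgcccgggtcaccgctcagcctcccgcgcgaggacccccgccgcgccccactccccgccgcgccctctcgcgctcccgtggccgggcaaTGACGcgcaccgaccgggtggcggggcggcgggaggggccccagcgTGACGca
Cebpg: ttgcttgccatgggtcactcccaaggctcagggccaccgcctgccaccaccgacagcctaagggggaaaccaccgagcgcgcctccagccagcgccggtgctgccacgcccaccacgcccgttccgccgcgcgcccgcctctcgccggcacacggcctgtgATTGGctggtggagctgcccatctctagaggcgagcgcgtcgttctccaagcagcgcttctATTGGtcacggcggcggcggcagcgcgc
The letters searched on both strands were the full cAMP response element TGACGTCA and the TGACG inside it, and the full C/EBP palindrome TTGCGCAA and the TTGCG inside it. The CCAAT box was searched as well, and so was the TATAAA box. In the Cebpa run 1 TTGCG stood 185 to 181 bases before the start and 1 TATAAA 30 to 25 bases before it. The Cebpb run held 3 TGACG, at 180 to 176 (reverse strand, so printed as its complement), 53 to 49 and 7 to 3 bases before the start. The Cebpg run held 2 CCAAT on the reverse strand, at 89 to 85 and 28 to 24 bases. No run held a full TGACGTCA or TTGCGCAA. Of 32851 promoters of the same length, 17.8% held TGACG, 14.5% TTGCG, 33.8% CCAAT, 12.4% TATAAA, 1.55% the full response element and 0.164% the full palindrome. Such matches are descriptions of the letters and not evidence of binding. The 3 runs were rich in G and C, at 66.4% in Cebpa, 81.6% in Cebpb and 70.8% in Cebpg.

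In GENCODE on GRCm38 (mm10), Cebpa spans chr7:35119293-35121928 (Entrez 12606) and Cebpb chr2:167688915-167690418 (Entrez 12608), each with 1 exon. Cebpd, also of 1 exon, spans chr16:15887286-15891031 (Entrez 12609). Cebpg (Entrez 12611) lies at chr7:35046422-35056573 on the minus strand, 62719 bases from Cebpa. Cebpz (Entrez 12607) spans chr17:78919006-78937066 on the minus strand, and its longest transcript has 16 exons. Its exons share 171 bases with those of Cebpzos on the opposite strand, which is 3.67% of Cebpz and 15.1% of Cebpzos. Whether strand was used in counting is not given in the sources used here, so reads from these bases cannot be assigned to either gene.

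Levels are given as CPM, the count relative to the library's total after TMM scaling, replicate 1 before replicate 2. Differences are given on the log2 scale, with SE for their standard error. The SE was derived from the test, as the absolute difference divided by the square root of the F statistic. Tests are edgeR's quasi-likelihood test with Benjamini-Hochberg adjustment over the 12740 genes tested, called at an adjusted p below 0.05. P-values measure the spread between 2 experiments, pooled over the 6 time points. All libraries are bulk RNA, so fewer cells of a type and less RNA per cell cannot be told apart. Every one of the 5 genes differed between time points in the joint test, with adjusted p between 4.17e-15 (Cebpa) and 8.65e-07 (Cebpd), but so did 94.7% of all genes tested.

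**Figure D1:**
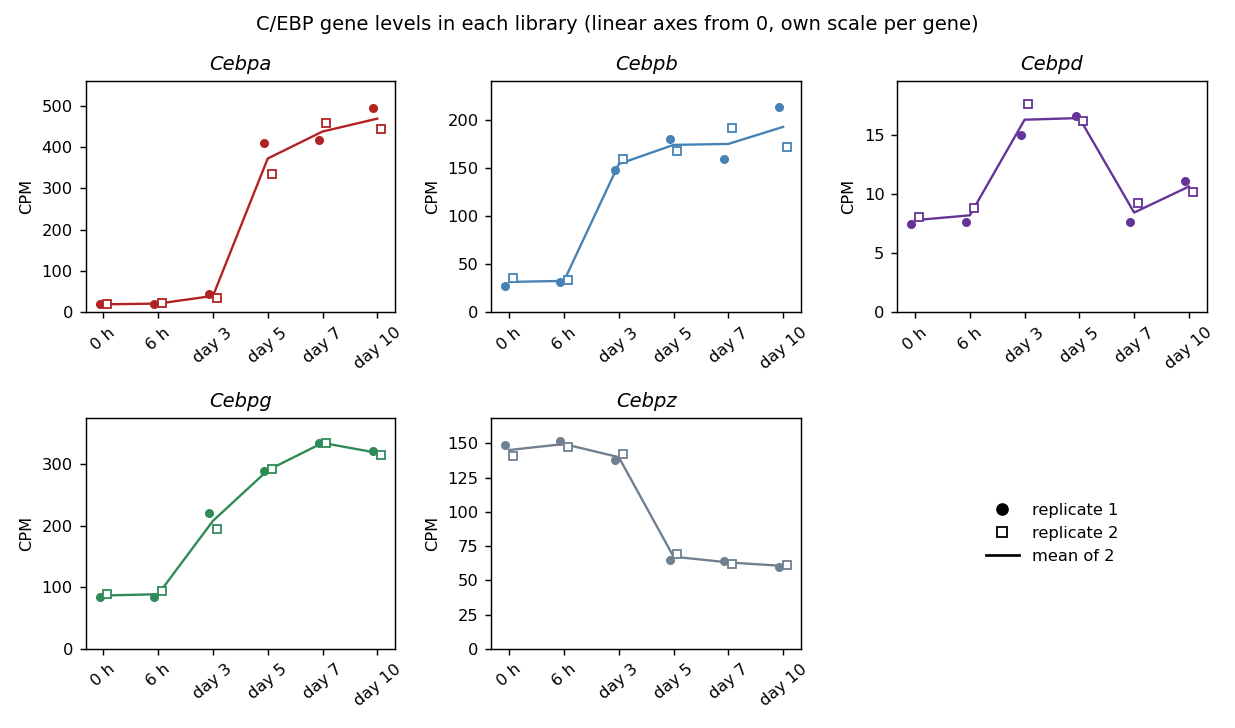
Level of each C/EBP gene in CPM (y axis, linear from 0, own scale per gene) at the 6 time points (x axis, evenly spaced and not to scale in time). Circles are replicate 1, squares replicate 2 and lines the mean of 2. Cebpb climbs by day 3, Cebpa between day 3 and day 5, Cebpd is highest at days 3 and 5, and Cebpz falls between day 3 and day 5.

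No change of a C/EBP gene was detected at 6 h. None of the 5 was called by edgeR against 0 h, none had an unadjusted p below 0.05 and DESeq2 called 0; 0.746% of all genes were called. The fitted differences at 6 h lay between 0.03 for Cebpg and 0.13 (SE 0.13) for Cebpa on the log2 scale. In the 6 h libraries Cebpa stood at 19.8 and 21.6 CPM, Cebpb at 31.5 and 33.5, Cebpd at 7.61 and 8.79 and Cebpg at 83.7 and 94.0. Pparg, the target of rosiglitazone, had 2 counts in each 0 h library (0.147 and 0.124 CPM). At 6 h it had 27 and 43 counts (1.76 and 2.33 CPM). The libraries of these times did not overlap, but the difference was not called by edgeR (adjusted p = 0.319). Pparg is set beside the C/EBP genes for its role and was chosen after its values were seen.

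Cebpb, an early activator of the fat cell program, had the largest fitted rise of the 5 genes under BMP2 alone. It was measured at 27.2 and 35.7 CPM at 0 h and at 148 and 160 CPM at day 3. Every day 3 library lay above every 0 h library. The rise was 2.29 (SE 0.14) on the log2 scale (adjusted p = 1.87e-08), a 4.88-fold increase, and 663 of 12740 genes had a larger fitted rise. After day 3 the level held, at 180 and 168 CPM at day 5, 159 and 191 at day 7 and 213 and 172 at day 10. None of the 3 later steps was called for Cebpb (adjusted p between 0.241 and 0.967), and at day 10 it stood 2.61 (SE 0.14) above 0 h (adjusted p = 2.14e-09). Its 2 libraries lay farther apart than those of Cebpg at day 10, with SD 29.0 around a mean of 193 CPM (n = 2).

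Cebpd, the other early activator, rose for a time and came back. It was scarce throughout, with 102 to 272 counts per library. The 0 h libraries had 7.49 and 8.10 CPM, the day 3 libraries 14.98 and 17.6, and the day 5 libraries 16.7 and 16.2. The rise by day 3 was 1.06 (SE 0.15, adjusted p = 6.26e-06), and the step to day 5 was 0.01 (adjusted p = 0.943). From day 5 to day 7, while BMP2 and rosiglitazone were given together, Cebpd fell by 0.96 on the log2 scale (SE 0.14, adjusted p = 6.37e-05), to 7.61 and 9.26 CPM. These day 7 values overlapped those of 0 h (difference 0.12, SE 0.16, adjusted p = 0.501). At day 10 the gene was at 11.1 and 10.2 CPM, 0.44 (SE 0.16) above 0 h (adjusted p = 0.0152). That last call was lost without 0 h replicate 1 (adjusted p = 0.0805) and without day 10 replicate 1 (adjusted p = 0.0864).

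Cebpa, which maintains the fat cell state, took its largest step between day 3 and day 5, the interval in which rosiglitazone was first given. It was at 19.2 and 18.7 CPM at 0 h and at 43.5 and 35.2 CPM at day 3, a rise of 1.05 (SE 0.13, adjusted p = 2.93e-06). At day 5 the libraries held 411 and 335 CPM, at day 7 418 and 458, and at day 10 495 and 444. The step from day 3 to day 5 was 3.24 (SE 0.12, adjusted p = 3.61e-12), or 9.47-fold, and 479 of 12740 genes had a larger fitted rise. None of the day 5 to day 10 libraries overlapped those of day 3. The step to day 7 was 0.23 (SE 0.10, adjusted p = 0.0913) and the step to day 10 was 0.10 (adjusted p = 0.52). The day 7 step was called when day 5 replicate 1 was left out (0.40, adjusted p = 0.0112), without day 3 replicate 1 or 2 (adjusted p = 0.0480 and 0.0479) and with no filter on low counts (adjusted p = 0.0164). By day 10 Cebpa stood 4.63 (SE 0.13) above 0 h (adjusted p = 4.19e-14), a 24.8-fold difference.

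Cebpg, the pairing partner without an activation domain, rose in steps up to day 7. Its libraries held 84.1 and 89.4 CPM at 0 h, 221 and 195 at day 3, 289 and 292 at day 5, 336 and 335 at day 7 and 323 and 315 at day 10. It rose by 1.26 (SE 0.08) up to day 3 (adjusted p = 3.62e-10) and by a further 0.48 (SE 0.07) up to day 5 (adjusted p = 3.01e-05). The step to day 7 was 0.21 (SE 0.07, adjusted p = 0.0400), with no overlap between the libraries of the 2 times. This small step lost its call when either library of 0 h, day 5, day 7 or day 10 was left out (adjusted p between 0.0534 and 0.136) and with upper-quartile scaling (adjusted p = 0.0815). At day 10 Cebpg was 1.88 (SE 0.08) above 0 h (adjusted p = 6.43e-13), or 3.67-fold.

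Cebpz, the nucleolar protein, was the 1 gene of the 5 that was below its 0 h level at day 10. It was level from 0 h to day 3, at 149 and 141 CPM at 0 h, 152 and 147 at 6 h and 138 and 142 at day 3. The difference of day 3 from 0 h was -0.05 (SE 0.07, adjusted p = 0.497), and it was 0.06 with upper-quartile scaling, which moved the median of all genes by 0.108. Between day 3 and day 5 it fell by 1.06 on the log2 scale (SE 0.07, adjusted p = 5.3e-10), to 65.1 and 69.4 CPM. Levels of 64.0 and 62.2 CPM at day 7 and 60.0 and 61.0 CPM at day 10 followed. Neither of these later steps was called (adjusted p = 0.315 and 0.575), and the total fall by day 10 was 1.26 (SE 0.07, adjusted p = 2.23e-11). Cebpzos, the gene on the opposite strand, went the other way, from 9.91 and 9.09 CPM at 0 h to 24.1 and 20.5 CPM at day 10 (1.23, SE 0.13, adjusted p = 1.28e-07).

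**Figure D2:**
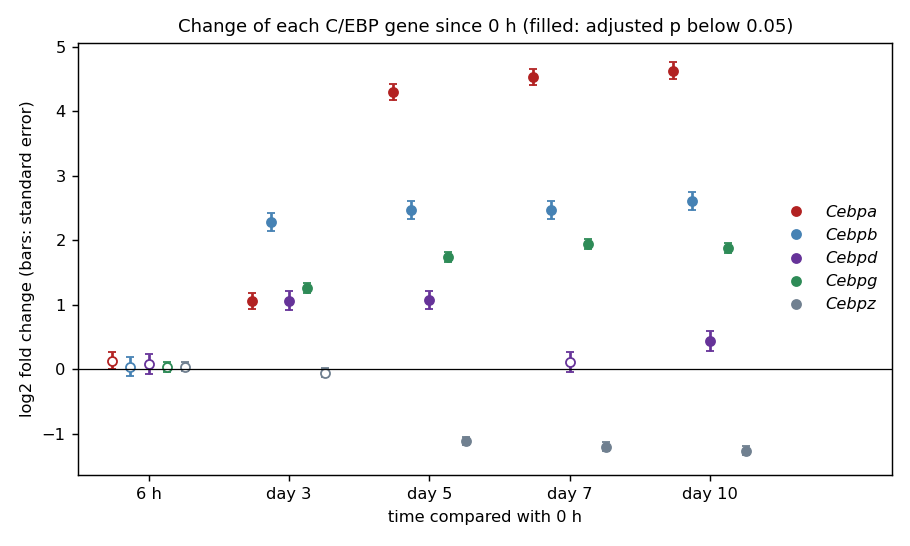
Log2 fold change of each C/EBP gene against 0 h (y axis) at the 5 later time points (x axis, evenly spaced). Points are fitted values, bars the standard error, and filled points have an adjusted p below 0.05. Cebpa reaches 4.63 and Cebpb 2.61 at day 10, Cebpd returns to 0.12 at day 7, and Cebpz ends at -1.26.

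The number of C/EBP genes called has to be read against the whole table, since most genes changed during the protocol. At day 3, 4 of the 5 differed from 0 h, where 68.1% of genes did. All 4 were higher, and 33.1% of genes were higher and 35.0% lower. Against 6 h it was again 4 at day 3, with 68.4% of genes called. All 5 differed from 0 h at day 5 (background 77.9%), 4 at day 7 (81.1%) and 5 at day 10 (82.7%). At day 10, 4 were higher and 1 lower, against 42.8% and 39.9% of genes. From day 3 to day 5, 3 of 5 were called (65.0% of genes): Cebpa and Cebpg among the 34.0% that rose and Cebpz among the 31.0% that fell. From day 5 to day 7 it was 2 of 5 (37.8%), Cebpd and Cebpg. From day 7 to day 10 edgeR and DESeq2 called 0 of 5, where 28.4% of genes were called by edgeR, and 1 gene, Cebpd, had an unadjusted p below 0.05. The comparisons with 0 h share the same 2 libraries and are not independent of each other.

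To compare levels between genes, CPM were divided by the gene length that the authors deposited, giving CPM per kb. At 0 h the order was Cebpz, Cebpb, Cebpg, Cebpa and Cebpd, with means of 35.6, 20.7, 18.4, 7.18 and 3.45 CPM per kb. The libraries of Cebpb and Cebpg overlapped at 0 h, and no other neighbours in the order did at any time. At day 3 Cebpb led with 97.7 and 105 CPM per kb, followed by Cebpg at 47.0 and 41.5 and Cebpz at 33.8 and 34.9. Cebpa, at 16.5 and 13.3, came after these 3. From day 5 on Cebpa led, with 156 and 127 CPM per kb at day 5 and 188 and 168 at day 10, ahead of Cebpb at 119 and 110 and then 140 and 113. Cebpz was below Cebpg from day 3 on and below Cebpa from day 5 on, when it was at 16.0 and 17.0 CPM per kb, and Cebpd stayed last throughout. The order was the same at each time with the union of GENCODE exons or the longest GENCODE transcript as the length. The level of Cebpd depends on that choice: GENCODE gives its exons 3746 bases where the authors' table has 2260, which lowers its mean at day 3 from 7.21 to 4.35 CPM per kb.

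The summed level of the 4 bZIP genes rose from 46.4 and 53.2 CPM per kb at 0 h to 168 in each library at day 3 and to 402 and 353 at day 10. Within that sum Cebpb made up 38.6% and 44.2% at 0 h, 58.2% and 62.7% at day 3 and 35.0% and 32.1% at day 10. Cebpa made up 15.7% and 13.3% at 0 h, 9.82% and 7.94% at day 3, 45.4% and 41.4% at day 5 and 46.7% and 47.6% at day 10. The pool was thus mostly Cebpb at day 3, and Cebpa was its largest member from day 5. The share of Cebpg went down from 38.6% and 35.7% to 17.1% and 19.0% although its level rose. Cebpd fell from 7.15% and 6.74% of the pool to 1.22% and 1.28%. The ratio of Cebpa to Cebpb, per kb, was 0.406 and 0.302 at 0 h, 0.169 and 0.127 at day 3, 1.31 and 1.15 at day 5 and 1.34 and 1.48 at day 10. The ratio was therefore below 1 in all 6 libraries up to day 3 and above 1 in all 6 from day 5. These shares describe RNA, not protein or dimers, and were not tested.

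**Figure D3:**
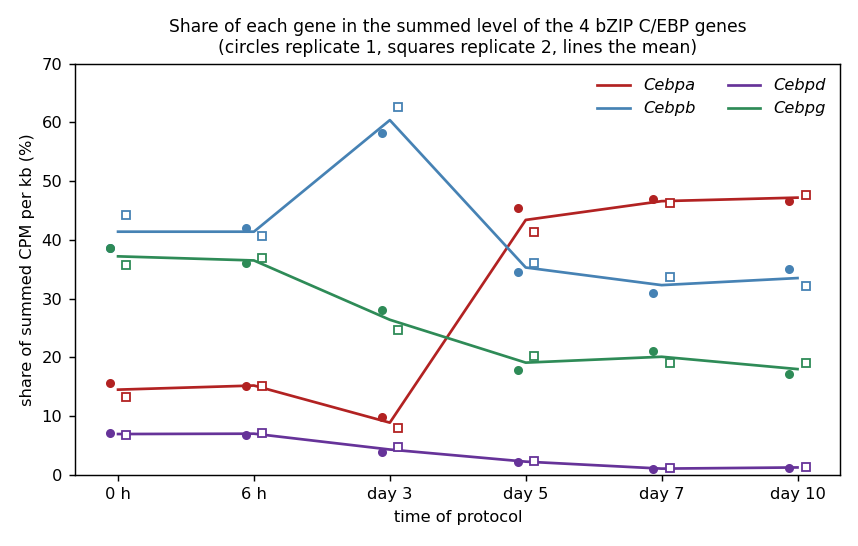
Share of each bZIP C/EBP gene in their summed CPM per kb (y axis, percent) at the 6 time points (x axis, evenly spaced). Circles are replicate 1, squares replicate 2 and lines the mean of 2. Cebpb peaks at a mean of 60.4% at day 3, and Cebpa goes from 8.88% at day 3 to 43.4% at day 5.

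Pparg and several fat cell genes can be set beside these changes. Under BMP2 alone Pparg rose to 46.1 and 25.3 CPM at day 3, a fitted difference from 0 h of 7.97 (SE 0.57, adjusted p = 3.51e-06) that is imprecise because of its few counts at 0 h. Its step from day 3 to day 5, to 195 and 173 CPM, was smaller, at 2.36 (SE 0.22, adjusted p = 2.38e-05), and Cebpa rose by 3.24 in that interval. The fat cell genes differed among themselves at day 3, when the 4 bZIP C/EBP genes had risen. Lpl, the lipoprotein lipase, was already 3.58 (SE 0.11) above 0 h (adjusted p = 3.22e-14), and Scd1, which desaturates fatty acids, 1.57 (SE 0.34, adjusted p = 0.00417). Fabp4, a fatty acid binding protein, was not called (1.84 and 1.31 CPM, adjusted p = 0.563), nor were the fatty acid transporter Cd36 (adjusted p = 0.698) and the lipid droplet gene Cidec (adjusted p = 0.376). Fabp4 reached 1385 and 1128 CPM at day 5, a step of 9.63 (SE 0.18, adjusted p = 2.26e-16). Among 15 adipocyte genes known as C/EBP targets, 4 rose and 1 fell by day 3 (median 0.24), fewer calls than the 68.1% of all genes, while 13 rose from day 3 to day 5 (median 4.93) and all 15 had risen at day 10 (median 9.66). The medians of all genes were 0.00, 0.01 and 0.06, and the shares of all genes called higher were 33.1%, 34.0% and 42.8%. In these comparisons 6, 6 and 5 of the 15 had 0 to 3 counts in a group, and with such genes placed at their bound or ratio the medians were 0.20, 2.83 and 8.23. Such genes passed the count filter only through the times when they were high, so their rise was partly built in. At 0 h and day 3 several of them had too few counts to be called. Pck1, Retn and Slc2a4 had a fitted difference of 0 between these times. The low share of calls by day 3 is therefore not a result about the list. By day 10 Lpl, Scd1, Cidec and Cd36 had risen by 7.29 (SE 0.13), 8.22 (SE 0.45), 13.14 (SE 0.23) and 13.41 (SE 0.19). Cidec had 6 and 8 counts at 0 h and Cd36 5 and 8. These 2 genes also passed the count filter only through the later times, so their rise was partly built in. Pck1, of glyceride synthesis, and Cidea, of lipid droplets, were without a count at 0 h. Taking 3 counts over the 0 h group as the floor, they were at least 3050-fold and 2290-fold higher at day 10.

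Ddit3 encodes CHOP, a C/EBP homologous protein that pairs with Cebpa and Cebpb and keeps them from their usual sites. It was measured at 9.62 and 9.64 CPM at 0 h, 255 and 345 at day 3, 36.7 and 34.2 at day 5, 121 and 110 at day 7 and 61.5 and 51.4 at day 10. The day 3 libraries stood above all others, and day 7 above day 5 and day 10. Its rise to day 3 was 4.96 (SE 0.15, adjusted p = 7.79e-12), followed by a fall of 3.08 to day 5 (adjusted p = 2.05e-10). A rise of 1.71 to day 7 (adjusted p = 6.18e-07) came next, and it then dropped by 1.04 to day 10 (adjusted p = 6.2e-05). Trib3, a pseudokinase of the same stress response, was at 5.21 and 5.19 CPM at 0 h, 209 and 293 at day 3, 25.8 and 21.8 at day 5 and 105 and 91.2 at day 7. Atf4, the partner of Cebpg that drives both, had 350 and 352 CPM at 0 h, 890 and 932 at day 3, 434 and 380 at day 5 and 700 and 773 at day 7. Cebpg did not follow this zigzag: each of its day 5 libraries lay above each of its day 3 libraries.

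**Figure D4:**
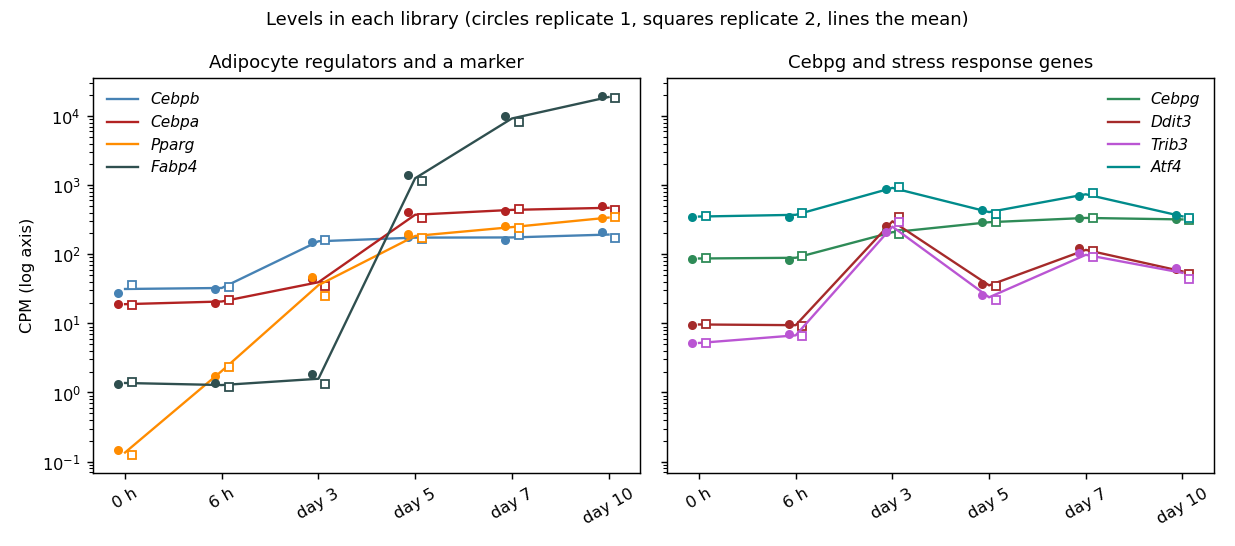
Levels in CPM (y axes, log scale) at the 6 time points (x axes, evenly spaced), with circles for replicate 1, squares for replicate 2 and lines for the mean of 2. On the left Cebpb and Pparg have risen by day 3, Cebpa takes its largest step at day 5, and Fabp4 leaves its starting level between day 3 and day 5. On the right Ddit3, Trib3 and Atf4 are high at days 3 and 7 and lower at day 5, while Cebpg climbs to day 7.

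Genes around the C/EBP factors were described by lists, beside the same for all genes. Over all genes 33.1% rose and 35.0% fell by day 3 (median 0.00), 34.0% rose and 31.0% fell from day 3 to day 5 (median 0.01), and 42.8% rose and 39.9% fell by day 10 (median 0.06). Of 10 regulators of C/EBP transcription, 8 rose and 1 fell by day 3 (median 1.34). By day 10 it was 5 and 2 (median 0.31). That count is near the 82.7% of all genes called and is not a result about the list. Klf15, a Krüppel-like activator of adipogenesis, was without a count at 0 h, and by the same floor it was at least 96.9-fold higher at day 3 and 256-fold higher at day 10. It passed the count filter only through the times when it was high, so its rise was partly built in. Stat5a, a cytokine signalling factor that promotes adipogenesis, rose by 3.65 (SE 0.12, adjusted p = 4.39e-14) by day 10, and Nr3c1, the glucocorticoid receptor, by 1.95 (SE 0.07). Klf5, another Krüppel-like factor of early adipogenesis, fell by 3.85 (SE 0.38, adjusted p = 2.81e-07). Atf4 stood 0.01 from its 0 h level at day 10 (adjusted p = 0.924), with overlapping libraries and a sign that changed with the scaling. Of 9 tested bZIP partners and relatives (13 listed), 8 rose and 1 fell by day 3 (median 2.32), where 33.1% and 35.0% of all genes did. By day 10 it was 7 and 1 (median 1.34), where 42.8% and 39.9% of all genes rose and fell. The stress factor Atf3 was 4.49 (SE 0.22) above 0 h at day 3 (adjusted p = 2.6e-10). The clock output factors Dbp and Tef rose by 4.64 (SE 0.21) and 2.16 (SE 0.08) by day 10.

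Of 12 genes that act on C/EBP proteins, 5 rose and 3 fell by day 3, and 5 rose and 5 fell by day 10 (medians 0.13 and 0.09). These counts are near the shares of all genes called, 68.1% and 82.7%, and are not a result about the list. Trib2, a pseudokinase that leads Cebpa protein to degradation, rose by 2.40 (SE 0.29, adjusted p = 4.33e-05) by day 10, and Trib3 by 3.36 (SE 0.28, adjusted p = 2.88e-06). Trib1, of the same list, went the other way (-0.80 at day 10, adjusted p = 3.9e-06). Celf1 and Calr, which bind C/EBP messenger RNAs, fell by 1.44 (SE 0.07) and 0.46 (SE 0.08). Protein levels and phosphorylation were not measured here.

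Acute phase and inflammatory genes known as C/EBP targets moved in both directions. Of 14 tested (18 listed), 5 rose and 6 fell by day 10, with a median of -1.08, or -0.35 with the 8 genes of 0 to 3 counts placed at their bound or ratio. This is near the 42.8% and 39.9% of all genes that rose and fell, so the count is not a result about the list. Orm1, an acute phase protein of plasma, had 3 counts over the 0 h libraries and 240 and 261 CPM at day 10, a ratio of 2500 (95% exact counting interval 855 to 12100, counting error only). Hp, the haemoglobin scavenger haptoglobin, had 1 count at 0 h and 18.8 and 24.1 CPM at day 10, a ratio of 646 (95% exact counting interval 115 to 25600). Orm1 and Hp passed the count filter only through the later times when they were high, so their rise was partly built in. Ccl2, a chemokine gene, went the other way, from 64.7 CPM in each 0 h library to 3 counts over the day 10 libraries, 522-fold lower (95% exact counting interval 179 to 2540). The prostaglandin enzyme gene Ptgs2, a Cebpb target in inflammation, went from 392 and 383 CPM at 0 h to 6.09 and 7.50 at day 10, and so fell by 5.82 (SE 0.11, adjusted p = 6.71e-17). The chemokine gene Cxcl5 fell by 6.30 (SE 0.23, adjusted p = 2.99e-10). Of 15 amino acid genes controlled by ATF4 and C/EBPγ, 9 rose and 4 fell by day 3 (median 0.87), 1 rose and 13 fell from day 3 to day 5 (median -1.45), and 3 rose and 11 fell over the whole course (median -1.01). The shares of all genes that rose and fell were 33.1% and 35.0%, 34.0% and 31.0%, and 42.8% and 39.9%. Slc7a5, an amino acid carrier, was at 164 and 157 CPM at 0 h, 494 and 517 at day 3 and 49.1 and 37.4 at day 10. Slc3a2, its partner chain, rose by 1.70 (SE 0.08) by day 3 and ended at a difference of -0.35 (SE 0.08) at day 10. The serine synthesis gene Phgdh fell by 4.92 (SE 0.16, adjusted p = 4.79e-14) by day 10, and Shmt2, which makes glycine from serine, fell by 3.20 (SE 0.09), while Psat1 of the serine pathway rose by 0.81 (SE 0.08, adjusted p = 4.97e-08). Cebpg was higher at day 5 than at day 3 while 13 of these 15 genes were lower.

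Nucleolar ribosome assembly factors, the relatives and partners of Cebpz, fell over the course as well. Of 22 such genes, 19 fell and 0 rose by day 3 (median -0.53), 19 fell from day 3 to day 5 (median -0.65), and 21 had fallen by day 10 (median -1.93). Of all genes 35.0%, 31.0% and 39.9% fell. Cebpz itself was not called at day 3, and its fall to day 10, 1.26, was smaller than the list's median. Noc4l, a Noc family gene like Cebpz, fell by 1.32 (SE 0.12, adjusted p = 3.24e-08) by day 3 and by 2.74 (SE 0.14, adjusted p = 5.4e-12) by day 10. The other Noc genes of the list differed from it. Noc3l, like Cebpz, was not called at day 3 (0.16, adjusted p = 0.0588) and was at -1.37 at day 10. Noc2l was at -0.60 at day 3 and -1.925 at day 10. Ebna1bp2 and Nop16, nucleolar proteins of the large subunit, fell by 2.61 (SE 0.08) and 2.67 (SE 0.11) by day 10, and Ftsj3, a ribosomal RNA methyltransferase, fell by 2.19 (SE 0.08). Rrp1 was the 1 gene of the list not called at day 10 (-0.08, SE 0.07, adjusted p = 0.303).

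**Figure D5:**
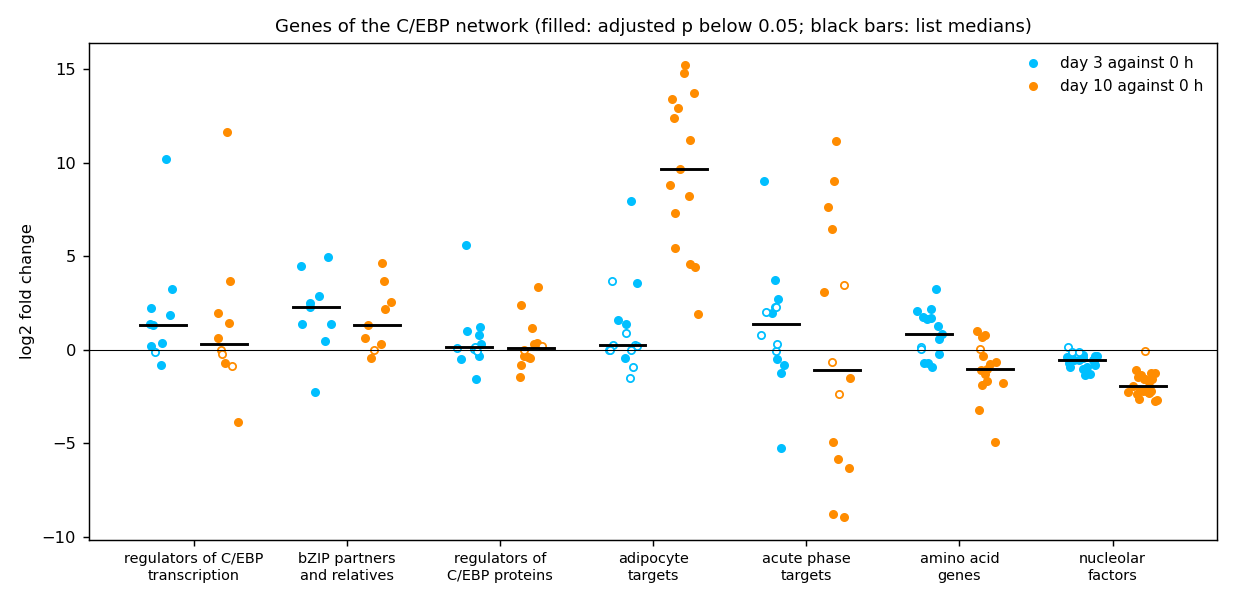
Log2 fold change (y axis) of each tested gene in 7 lists around the C/EBP genes (x axis), at day 3 (blue) and day 10 (orange) against 0 h. Filled points have an adjusted p below 0.05 and black bars are list medians; fitted values of genes with 0 counts at 0 h are no bounds. Adipocyte targets have a median of 0.24 at day 3 and all lie above 0 at day 10, whereas nucleolar factors lie below 0 at day 10.

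Genes that tracked each C/EBP gene most closely over the 12 libraries were ranked by Pearson's r of log2 CPM among 9099 genes, as a description with no test, since the libraries share the time course. Cebpa was tracked by Agt (r = 0.999), Mpc2 (0.9986), Cped1 (0.9984), Gpd1 (0.9983) and Hsdl2 (0.9983). Agt, the angiotensin precursor, went from 0.147 and 0.185 CPM at 0 h to 99.6 and 85.8 at day 5. Cebpb was closest to Zgpat (0.9953), Hps1 (0.9942), Adcy9 (0.9933), Rnf166 (0.9932) and Irf2bp2 (0.9931). Adcy9, an adenylyl cyclase, had 6.97 and 8.59 CPM at 0 h, 41.2 and 46.6 at day 3 and 60.4 and 56.9 at day 10. For Cebpd the closest genes were Ly6c1 (0.9670), Cnot8 (0.9523), Tle6 (0.9429), Tifa (0.9308) and Arid2 (0.9290). Ly6c1, a surface antigen gene, shared its passing rise, at 9.84 and 12.8 CPM at 0 h, 58.4 and 47.9 at day 3 and 10.2 and 14.6 at day 7. Cebpg was tracked by Mindy2 (0.9978), Dcaf8 (0.9977), Pink1 (0.9967), Ctns (0.9964) and Nfe2l1 (0.9962), and Cebpz by Cdc14b (0.9973), Abcc1 (0.9972), Tnpo1 (0.9969), Snhg5 (0.9937) and Rgs10 (0.9934). Among the C/EBP genes themselves r was highest between Cebpb and Cebpg (0.97), lowest between Cebpa and Cebpz (-0.99), and 0.27 between Cebpa and Cebpd.

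Markers of other cells were looked at because C/EBP genes are also high in myeloid cells and hepatocytes. Of 9 leukocyte markers 5 were in the table, with a summed level between 1.92 and 8.65 CPM per library. Most of it was Cd68 at its peak (6.90 and 8.17 CPM at day 5), while Csf1r was at 1.10 and 0.865 CPM at 0 h and Ptprc and Elane were at or near 0 counts. Of 6 hepatocyte markers 2, Afp and Apoa1, were in the table, and their sum lay between 0.0617 and 0.661 CPM. The summed adipocyte markers, 7 of 7, rose from 26.1 and 31.6 CPM at 0 h to 35060 and 33670 at day 10. All 7 were called higher at day 10, where 42.8% of all genes were. Cd36 (5 and 8 counts at 0 h), Cidec (6 and 8) and Adipoq (6 over both 0 h libraries) started near the floor. They passed the count filter only through the later times when they were high, so their rise was partly built in. The count is therefore not a result about these markers. The sum of the 6 mesenchymal markers went from 9187 and 9559 CPM to 2952 and 3290, but 3 of the 6 rose and 3 fell. This is near the 42.8% and 39.9% of all genes that rose and fell, so the count is not a result about these markers. Vim fell by 1.72 (SE 0.13), Cdh2 by 1.72 (SE 0.07) and Fn1 by 1.69 (SE 0.45), while Twist1 rose by 1.00, Zeb2 by 0.42 and Zeb1 by 0.19. The fall of Fn1 was not called without 0 h replicate 2 (adjusted p = 0.0538) or day 10 replicate 1 (adjusted p = 0.0598). Of 6 mammary epithelial markers 5 were in the table. Their sum was 848 and 837 CPM at 0 h, 149 and 102 at day 3, when Cebpb had risen, and 963 and 905 at day 10. Behind the day 10 sum, Krt8 and Krt18 were lower than at 0 h by differences of -1.32 (SE 0.14) and -1.99 (SE 0.11), Krt14 had risen by 2.50 (SE 0.27), and Epcam, without a count at 0 h, was at 5.28 and 6.20 CPM. Their part in the C/EBP changes was not tested.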

How the data were processed

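RNA of 12 libraries (6 time points, 2 each) was sequenced from 200 ng of RNA per library with a stranded total RNA kit, per the labels' protocols, which also describe it as poly-A+. The authors deposited raw counts per gene and gene lengths. Per the submitters' processing notes, STAR and mm10 were used. The sources used here do not give the counting tool, its strand setting or its annotation. Of 17090 Entrez identifiers, 17045 were named with RefSeq GRCm38.p6, 4 with GENCODE, and 41 were unmatched. Library totals lay between 12820802 and 17570366 counts.

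Counts were fitted with edgeR 4.0.16 (R 4.3.3; robust quasi-likelihood F test, TMM factors) with 1 mean per time point over all 12 libraries, leaving 6 residual degrees of freedom. The filter filterByExpr (minimum count 10, minimum total 15) left 12740 genes and removed 4350. P-values were Benjamini-Hochberg adjusted over all of them and called below 0.05. Fold changes used a prior count of 0.125 and log2 CPM a prior count of 2. Levels per kb used the length deposited by the authors. The plan at first named exon length from an annotation. The union of GENCODE exons became an alternative only after the data were seen. The fitting steps were run on simulated data in which a small part of the genes changed, and at day 10 only. Most genes were called in these data, so that run does not cover their setting. The members, lists and tests were chosen with earlier results of these data known. The text names the 5 members, Cebpzos and Ddit3, per list up to 3 called genes with the largest change at day 10 against 0 h and the 2 most abundant, and the 5 genes most alike to each member (mean CPM of at least 10). Of the genes under this rule, 1 is not reported here. Alternatives were DESeq2 1.42.0, 2 other scalings, other filters, a replicate block, fits of 4 libraries, other lengths and each library left out. Replicate numbers did not pair the libraries: same-number deviations correlated above 0.1 in 1 of 15 pairs of time points.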

Additional observations from a re-analysis of the deposited data

How the results depend on the processing

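Among the results for the 5 C/EBP genes, 337 of the values under another tool, scaling, filter, block or set of libraries kept their direction and side of the threshold, and so did 576 of those without 1 library. The exceptions, and those among the counts of called genes, are these. With no filter the count of genes called at 6 h against 0 h was 275, and in a fit of only the 4 libraries compared 223, against 95. Without 1 library it lay between 35 and 141, the count of day 7 against day 5 between 3128 and 5154 (4815 with all), and that of day 10 against day 7 between 2143 and 3998 (3615 with all). Upper-quartile scaling turned the sign of differences that were not called: Cebpz at day 3 against 0 h (0.0565) and 6 h (0.0207), Cebpd at day 5 against day 3 (-0.0654; no filter -0.00452, only 4 libraries -0.00222) and Cebpb at day 7 against day 5 (-0.0273). It also left Cebpg at day 7 against day 5 at 0.169 and uncalled, and no filter brought Cebpa in that step to 0.247 and called it. Upper-quartile scaling moved the median of all genes by 0.108 at day 3 against 0 h and 0.116 against 6 h.

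Without 1 library, the differences at 6 h ranged from -0.136 to 0.259 for Cebpb, -0.0519 to 0.114 for Cebpg and -0.0366 to 0.17 for Cebpd. Cebpd ranged from -0.036 to 0.246 at day 7 and 0.382 to 0.507 at day 10 against 0 h, and -0.1 to 0.134 at day 5 against day 3. At day 7 against day 5 the ranges were 0.203 to 0.214 for Cebpg, 0.0918 to 0.404 for Cebpa and -0.131 to 0.135 for Cebpb, and at day 10 against day 7 -0.0242 to 0.284 for Cebpb. The cause was not tested. Of genes outside the 5, uncalled signs turned with upper-quartile scaling for Rrp1 at day 5 against day 3 (-0.0523) and Atf4 at day 10 against 0 h (-0.0159; no filter -0.0197, only 4 libraries -0.00532). Without 1 library Cidec reached -0.247 to 1.01 and Fabp4 -0.0647 to 0.417 at day 3 against 0 h, Ccl2 -1.41 to 0.425, Trib2 -0.168 to 0.0921 and Rrp1 -0.056 to 0.0883 at day 5 against day 3, and Atf4 -0.0796 to 0.0925 at day 10 against 0 h.

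The replicate block changed no call of the 5 genes: with it the count at 6 h was 105, Cebpa at day 10 was 4.63 above 0 h and Cebpd 0.447. Same-number deviations correlated between -0.0913 and 0.193 over the 15 pairs of time points (median 0.032), so the numbers were not taken as pairs. Depth limits Cebpd most, with 102 to 272 counts per library, and the 2 libraries per time point limit every comparison.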
